A study of Homo sapiens with 4 samples.

Results

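The secreted and membrane-bound axon guidance proteins of U251 cells were described gene by gene, and they comprise the semaphorins and their plexin and neuropilin receptors, the ephrins and Eph receptors, the slits and robos, and the netrins with the UNC5 and neogenin receptors. Genes were taken by symbol from the deposited count table, which held 63 of them among 15575 genes. The human annotation GENCODE 44 lists 69 symbols that fit the same pattern, and the other 6 (DCC, EPHA1, EPHA8, SEMA3E, SEMA4G and UNC5A) were not analysed here. U251 is an established human glioblastoma (GBM) cell line. The experiment comprised 2 control libraries (Ctrl, labelled pGreen_Ctrl) and 2 libraries of cells in which PRMT3, a protein arginine methyltransferase, was knocked down by lentiviral shRNA (PRMT3-KD), and it addressed what loss of PRMT3 does to the GBM transcriptome. All libraries came from the same line in culture. The paper used 2 hairpins against PRMT3, and the labels do not say which one either PRMT3-KD library carries. Nothing in the labels says that libraries came from separate cultures, so p-values measure only the spread between these libraries.

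Guidance proteins were first known for steering growing axons, and the same ligands and receptors act in cell migration, tissue boundaries and blood vessel growth. Semaphorins signal through plexins, and most secreted class 3 semaphorins bind a neuropilin that joins a plexin. Ephrins are tethered to the membrane and activate Eph receptor tyrosine kinases on the neighbouring cell, slits bind robos, and netrins bind DCC, neogenin and UNC5 receptors. Several of these proteins, EPHA2 among them, are studied in glioblastoma.

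In PRMT3-KD cells, 7 of the 57 guidance genes that could be tested rose and none fell past the threshold. They were 3 semaphorins (SEMA7A, SEMA6B and SEMA3D), the ligand EFNA1, and the receptors PLXNB2, EPHB2 and EPHA4. The threshold was an adjusted p under 0.05 in the quasi-likelihood test of edgeR (Benjamini-Hochberg over 13172 genes), together with a change of over 1.5-fold. The 7 genes that rose were 12.3% of the tested guidance genes, where 4.97% of all tested genes were higher. The count of 0 lower guidance genes stood beside 5.97% of all tested genes that were lower. At an unadjusted p under 0.05 (edgeR), 14 guidance genes were higher and 4 were lower, where 19.1% of all tested genes were higher and 18.5% lower. DESeq2 and limma-voom each placed 1 guidance gene (NRP2) past the lower threshold. The median log2 fold change (log2FC, PRMT3-KD over Ctrl) was 0.13 over the guidance genes and 0.0055 over all tested genes. It was above 0 in 39 of the 57 tested guidance genes and in 50.5% of all tested genes.

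Total counts were between 24804250 and 29756313 per library, and the targeted gene followed the labels, PRMT3 having 535 counts in each Ctrl library but 77 and 45 after knockdown. The Ctrl libraries differed little more than counting error (chi-square of 1.42 per degree of freedom), and the PRMT3-KD libraries differed far more (66.4). With either Ctrl library left out, 0 guidance genes and 0% of all tested genes passed in edgeR, and 7 or 8 guidance genes (12.1% and 13.3%) had an unadjusted p under 0.05, against 13.7% and 13.9% of all tested genes. With either PRMT3-KD library left out the share of all genes past the threshold also grew, to 22.9% without library 1 and 22.3% without library 2, and 19 guidance genes passed in each (31.7% and 32.8%), 15 of them higher without library 1 and 8 higher without library 2. All 7 genes named above stayed over 1.5-fold higher in the point estimate of each of these 4 fits. With 2 libraries a group the smallest exact permutation p is 0.333, and genes were therefore tested in the model across all genes alone. Changes in RNA per cell and in the share of cells that make it cannot be told apart in bulk libraries.

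The GBM line carried its glial and glioma markers (VIM, CD44, NES and SOX2 foremost), none of 7 past the threshold, with a summed level of 7332 to 8363 CPM (counts scaled to the library total). VIM dominated that sum. The scarcer GFAP, which encodes the filament protein of astrocytes, had 13.1 and 14.2 CPM in Ctrl against 1.26 and 5.39 CPM after knockdown (log2FC -2.03, edgeR adjusted p = 0.0958), and FABP7 had 34.7 and 33.5 CPM against 14.7 and 23.9 CPM (log2FC -0.82, edgeR adjusted p = 0.0882). Summed markers of neurons lay between 63.1 and 71.4 CPM, most of it MAP2 (mean 53.99 CPM in Ctrl, 45.31 CPM after knockdown). Means in Ctrl and after knockdown were 10.56 and 14.15 CPM for SYT1, 3.658 and 3.872 CPM for SNAP25, and 3.132 and 1.658 CPM for GAP43. Of the neuron markers in the count table, STMN2 alone was at or near 0. Markers of the oligodendrocyte lineage summed to 33.8 and 34.8 CPM in Ctrl and to 9.25 and 37.9 CPM in PRMT3-KD libraries 1 and 2, nearly all of it PDGFRA. Endothelial markers summed to 27.5 and 29.6 CPM in Ctrl and to 19.6 and 37.9 CPM in PRMT3-KD libraries 1 and 2. Among them KDR, a receptor of vascular endothelial growth factors, was the one marker gene of all the lists to pass the threshold, and it fell from 20.1 and 22.2 CPM to 13.4 and 9.997 CPM (log2FC -0.86, edgeR adjusted p = 0.0428). Markers of microglia and macrophages summed to 29.9 to 33.6 CPM, most of it CD68 (24.0 and 25.6 CPM in Ctrl, 29.6 and 29.7 CPM after knockdown). CSF1R had 5.27 and 5.42 CPM in Ctrl against 2.48 and 3.45 CPM after knockdown. ITGAM did not exceed 0.512 CPM, nor PTPRC 0.246 CPM. The sums cover only markers in the count table. It lacked 1 of 6 listed neuron markers, 2 of 6 oligodendrocyte lineage, 3 of 6 endothelial and 2 of 6 microglia and macrophage markers. The part of these marker levels in the results below was not tested.

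The semaphorin genes held the largest increase among the guidance genes. SEMA7A (ENSG00000138623, chromosome 15, 74701630 to 74726299, in GRCh37 as are all gene positions given) encodes a semaphorin held at the cell surface by a lipid anchor, which binds plexin C1 and integrins. Its level, scaled by edgeR's TMM factors, was 58.5 and 57.8 CPM in the Ctrl libraries and 284 and 139.6 CPM in the PRMT3-KD libraries. Both PRMT3-KD libraries lay above both Ctrl libraries, but they were over 2-fold apart. The mean rose from 58.1 ± 0.52 to 212 ± 102 CPM (SD, n = 2 libraries each), with a log2FC of 1.87 ± 0.36 (SE, edgeR adjusted p = 0.0382). The log2FC was 1.27 without PRMT3-KD library 1 and 2.29 without PRMT3-KD library 2. PLXNC1, the gene of its plexin receptor, was scarce in all 4 libraries, with 0.325 to 0.774 CPM, and 177 bases of its exons overlap CEP83 on the other strand.

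SEMA6B (ENSG00000167680, chromosome 19, 4542605 to 4581788) encodes a transmembrane semaphorin that binds plexins of class A. Its libraries were tighter, with 19.2 and 20.5 CPM in Ctrl against 44.8 and 50.1 CPM after knockdown. The log2FC was 1.26 ± 0.104 (SE, edgeR adjusted p = 0.0142), and the groups did not overlap. SEMA3D (ENSG00000153993, chromosome 7, 84624869 to 84816372), a secreted class 3 semaphorin, was a scarcer transcript with 5.96 and 6.43 CPM in Ctrl against 9.37 and 11.0 CPM after knockdown. Its log2FC was 0.72 ± 0.154 (SE, edgeR adjusted p = 0.0466), and it missed the threshold when libraries were scaled by their totals alone (edgeR adjusted p = 0.0535).

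SEMA3A, which encodes a secreted repellent of growth cones that binds neuropilin-1, also had an adjusted p under 0.05, but below 1.5-fold. It was measured at 108 and 108 CPM in Ctrl against 134 and 148 CPM after knockdown, a log2FC of 0.38 ± 0.0828 (SE, edgeR adjusted p = 0.0469). Its adjusted p ranged from 0.0210 to 0.0859 over the 8 fits that used all libraries in another way. SEMA3C, the most abundant semaphorin transcript per length, had no such shift. Its 359 and 363 CPM in Ctrl compared with 299 and 442 CPM in PRMT3-KD cells, on either side of Ctrl, and the log2FC of 0.04 had a 95% interval of -0.49 to 0.57.

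By class, the tested semaphorins comprised 5 of class 3 (1 higher), 4 of class 4 (0 higher), 1 of class 5 (0 higher), 4 of class 6 (1 higher) and 1 of class 7 (1 higher). Of the 15, 11 had a log2FC above 0, as did 39 of all 57 tested guidance genes and 50.5% of all tested genes. The median log2FC of the 15 was 0.27. Among the class 4 genes, SEMA4D, which encodes a ligand of plexin B1, gave 10.9 and 11.4 CPM in Ctrl against 13.8 and 16.2 CPM after knockdown (log2FC 0.42, edgeR adjusted p = 0.0934). SEMA6D had a log2FC of 1.11 at 0.577 to 1.73 CPM and did not pass (edgeR adjusted p = 0.0873). Apart from SEMA3A, SEMA4D, SEMA6D and SEMA3F (0.56), the tested semaphorins that did not pass had log2FCs from -0.22 to 0.27. The summed level of all semaphorins was 720.6 and 731.6 CPM in Ctrl against 947.3 and 997.6 CPM after knockdown. Without SEMA7A the sum was 662.1 and 673.8 CPM in Ctrl against 662.9 and 858.0 CPM after knockdown. PRMT3-KD library 1 was then within the Ctrl range, as a net value of rises and falls. Among others, SEMA6B (44.8 against 19.2 and 20.5 CPM) and SEMA3A (134 against 108 and 108 CPM) were higher in that library. SEMA3C (299 against 359 and 363 CPM) was lower.

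**Figure D1:**
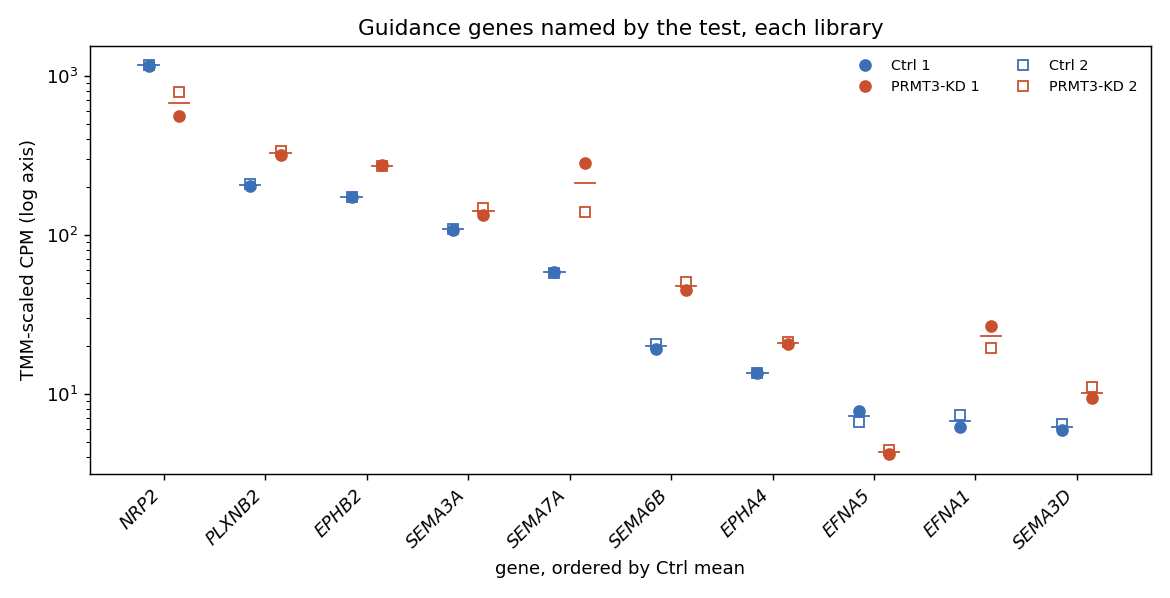
TMM-scaled CPM on a log axis for the guidance genes with an adjusted p under 0.05 and for NRP2 and EFNA5, with 1 symbol per library (Ctrl blue, PRMT3-KD red, filled circle library 1, open square library 2) and a bar at each group mean. SEMA7A rises most, from 58.1 to 212 CPM, with the PRMT3-KD libraries far apart, while EPHB2 and EPHA4 show nearly coincident replicates.

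On the receptor side, 1 of the 9 plexins passed the threshold. PLXNB2 (ENSG00000196576, chromosome 22, 50713408 to 50746075), a receptor for class 4 semaphorins, gave 201 and 208 CPM in Ctrl against 318 and 336 CPM after knockdown. Both values in PRMT3-KD cells were above both in Ctrl by far more than the spread of either group. The mean rose from 205 ± 4.74 to 327 ± 12.6 CPM (SD, n = 2 libraries each), with a log2FC of 0.68 ± 0.0725 (SE, edgeR adjusted p = 0.0182). SEMA4C, which encodes a ligand of plexin B2, stayed between 29.4 and 30.9 CPM in all libraries, with a log2FC of 0.05 and a 95% interval of -0.18 to 0.27. PLXNB3, a receptor of SEMA5A, pointed the other way, at 109.6 and 111 CPM in Ctrl against 72.3 and 87.0 CPM in PRMT3-KD cells (log2FC -0.47, edgeR adjusted p = 0.0565). Of its exons, 1432 bases overlap SRPK3 on the same strand, so reads there could belong to either gene. The remaining 7 plexins had log2FCs between -0.30 and 0.42, and none passed.

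Both neuropilin genes had negative fold changes, and neither passed in the main test. NRP2 (ENSG00000118257, chromosome 2, 206546714 to 206662857), the more abundant of the pair, encodes a co-receptor for class 3 semaphorins and for vascular endothelial growth factors. It had 1157 and 1161 CPM in Ctrl against 555.1 and 793.5 CPM after knockdown, with no overlap between groups. Its mean was 1159 ± 2.21 CPM in Ctrl and 674 ± 169 CPM after knockdown (SD, n = 2 each), giving a log2FC of -0.78 ± 0.186 (SE, edgeR adjusted p = 0.0555), which lay between -1.07 and -0.54 with 1 library left out. This gene was the one whose call depended most on the test, since DESeq2 placed it past the threshold (adjusted p = 0.00135), as did limma-voom with a separate variance for each group (adjusted p = 0.00403) and edgeR on library totals alone (adjusted p = 0.0389). NRP1, the co-receptor of SEMA3A, had 141 and 147 CPM in Ctrl against 109 and 122 CPM after knockdown (log2FC -0.32, edgeR adjusted p = 0.0764). Together the neuropilins summed to 1299 and 1307 CPM in Ctrl and to 663.9 and 915.8 CPM in PRMT3-KD cells.

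Among the ephrins, EFNA1 rose and EFNA5 had the lowest fold change. EFNA1 (ENSG00000169242, chromosome 1, 155100352 to 155107375) encodes a lipid-anchored ligand of EPHA2 and other EphA receptors. Its level was 6.17 and 7.31 CPM in Ctrl against 26.6 and 19.4 CPM after knockdown, so the lowest PRMT3-KD library was well above the highest Ctrl library. The mean rose from 6.74 ± 0.803 to 23.0 ± 5.12 CPM (SD, n = 2 libraries each), with a log2FC of 1.77 ± 0.208 (SE, edgeR adjusted p = 0.0195), and it lay between 1.52 and 1.98 with 1 library left out. EFNA5 (ENSG00000184349, chromosome 5, 106712595 to 107006638), another lipid-anchored ephrin, had 7.83 and 6.65 CPM in Ctrl against 4.17 and 4.40 CPM after knockdown. The groups did not overlap, and the log2FC of -0.76 ± 0.17 (SE) just missed the threshold (edgeR adjusted p = 0.0503). It passed when the test was limited to genes counted at least 10 times in each library (edgeR adjusted p = 0.0485).

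EFNA4, with the highest Ctrl level per length of the ephrin-A genes, had 4.26 and 4.44 CPM in Ctrl against 5.31 and 8.34 CPM after knockdown (log2FC 0.65, edgeR adjusted p = 0.157). EFNA2 and EFNA3 did not exceed 1.55 CPM in any library. All ephrin-A genes together summed to at most 20.1 CPM in a Ctrl library and to 37.4 and 34.0 CPM after knockdown. Ephrin-B genes, whose proteins span the membrane, gave 0 calls of 3 in edgeR, DESeq2 and limma-voom, which called 10.9%, 11.8% and 12.8% of all genes. One of the 3 (EFNB1) had an unadjusted p under 0.05 in edgeR, as did 37.6% of all tested genes. EFNB2, the most abundant ephrin transcript per length, had 164 and 159 CPM in Ctrl against 178 and 174 CPM after knockdown, a log2FC of 0.13 with a 95% interval of -0.06 to 0.31. EFNB1 had a log2FC of 0.37 (edgeR adjusted p = 0.0561).

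Of the Eph receptor genes, 1 of 6 EphA and 1 of 4 EphB genes rose. EPHA4 (ENSG00000116106, chromosome 2, 222282747 to 222438922) encodes a receptor that binds ephrins of both classes. It was measured at 13.4 and 13.5 CPM in Ctrl against 20.6 and 21.1 CPM after knockdown, with close replicates in each group (log2FC 0.63 ± 0.0952 SE, edgeR adjusted p = 0.0257). EPHB2 (ENSG00000133216, chromosome 1, 23037332 to 23247993), a receptor of ephrin-B ligands, was at 172 and 172 CPM in Ctrl against 273 and 271 CPM after knockdown. It had the smallest relative spread in PRMT3-KD cells of the genes that rose, 272 ± 1.77 CPM (SD, n = 2), and a log2FC of 0.66 ± 0.0658 (SE, edgeR adjusted p = 0.0172).

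EPHA2, the receptor of EFNA1, was the most abundant guidance transcript per length in both conditions and did not pass. Its 769.7 and 786 CPM in Ctrl compared with 859.8 and 823 CPM in PRMT3-KD cells, and the log2FC of 0.11 had a 95% interval of -0.07 to 0.30 (edgeR adjusted p = 0.306). That interval lies inside 1.5-fold in either direction. It uses a common spread for both groups, although the PRMT3-KD libraries differed far more than the Ctrl libraries over all genes. EPHB4, the receptor of EFNB2 and the highest EphB gene per length, had 139.5 and 139.7 CPM in Ctrl against 158 and 170.1 CPM after knockdown (log2FC 0.23, edgeR adjusted p = 0.101). A stretch of 69 bases of its exons overlaps SLC12A9 on the other strand. All 6 tested EphA genes had a fold change above 0, from 0.03 for EPHA3 upward on the log2 scale, where 50.5% of all tested genes did. Of the EphB genes EPHB3 alone was below 0 (-0.27, edgeR adjusted p = 0.192). EPHA5 was the nearest to the threshold among the EphA genes that did not pass (log2FC 0.37, edgeR adjusted p = 0.0670).

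**Figure D2:**
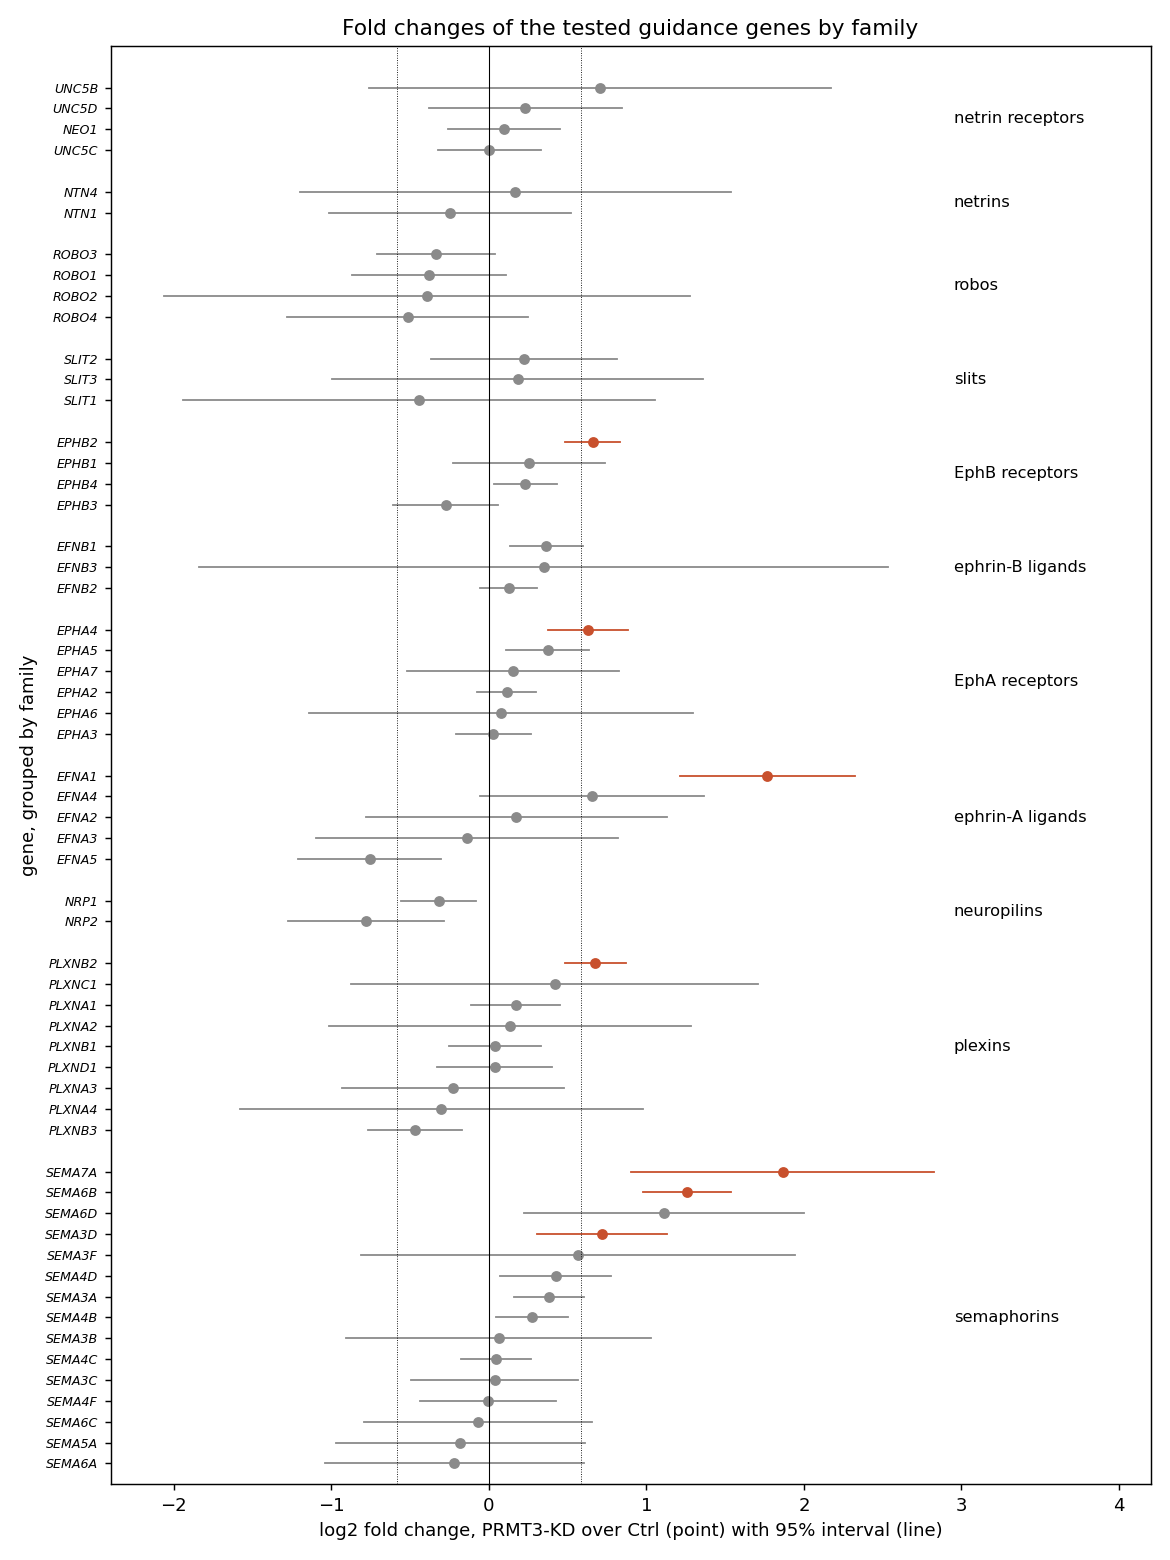
Log2 fold change of PRMT3-KD over Ctrl with its 95% interval for each of the 57 tested genes, grouped by family, with red for genes past the threshold and dotted lines at 1.5-fold. The 7 red points are all on the right, and both neuropilins and all 4 robos are left of 0 without passing. Of the 57 genes, 39 lie right of 0 and 18 left of it.

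The tested slit (3), robo (4), netrin (2) and netrin receptor (4) genes gave 0 calls in edgeR, DESeq2 and limma-voom alike. Of all genes, 10.9%, 11.8% and 12.8% were called in these tests, so 0 calls among so few genes is little different. None of these genes had an unadjusted p under 0.05 in edgeR, where 37.6% of all tested genes did. ROBO1, the most abundant robo transcript, had 202 and 198 CPM in Ctrl against 127 and 181 CPM after knockdown. Both PRMT3-KD values were lower, but they spread widely (log2FC -0.38, edgeR adjusted p = 0.213). The other 3 robo genes had log2FCs of -0.39 (ROBO2), -0.34 (ROBO3) and -0.52 (ROBO4), with no library above 10.1 CPM. SLIT2, a secreted ligand of these receptors, was higher in 1 PRMT3-KD library and lower in the other, with 173 and 181 CPM in Ctrl against 251.2 and 162 CPM. Its log2FC was 0.22 with a 95% interval of -0.37 to 0.82. UNC5C, the highest netrin receptor gene per length, had 54.1 and 57.1 CPM in Ctrl against 50.2 and 61.2 CPM after knockdown, a log2FC of 0.003 with a 95% interval of -0.32 to 0.33. NEO1, which encodes neogenin, a receptor of netrins and repulsive guidance molecules, was close to Ctrl as well (log2FC 0.10, 95% interval -0.26 to 0.45). Of the rest, SLIT1 was scarce in all libraries (at most 0.472 CPM), and UNC5D had a log2FC of 0.23. NTN1, which encodes the secreted netrin-1, had a log2FC of -0.25. Its PRMT3-KD libraries (23.4 and 41.6 CPM) lay on either side of Ctrl (37.3 and 39.95 CPM).

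A further feature of the guidance genes was disagreement between the PRMT3-KD libraries. The labels do not say whether these libraries carry the same hairpin, so a hairpin difference cannot be told apart from other differences between them. PRMT3-KD library 2 was above library 1 for 43 of 57 guidance genes, where it was above for 46.4% of all tested genes. In 19 guidance genes (33.3%) library 1 was below and library 2 above both Ctrl libraries, which was so for 9.83% of all tested genes. The opposite order occurred in 3 guidance genes (SLIT2, SEMA5A and SLIT1) and in 9.71% of all tested genes. Both PRMT3-KD libraries were above both Ctrl libraries for 20 guidance genes (35.1%), against 33.3% of all tested genes. Both were below for 8 guidance genes (14.0%), against 33.8%. The PRMT3-KD libraries were over 2-fold apart for 9 guidance genes, against 3.42% of all tested genes, and library 2 was the higher in all 9 except SEMA7A.

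The genes of this kind, named after their values were seen, came from several families. NTN4, a netrin that binds laminin and the most abundant netrin transcript per length, had 37.4 and 34.3 CPM in Ctrl, 20.5 CPM in PRMT3-KD library 1 and 60.0 CPM in library 2. PLXNA2, a receptor of class 3 and class 6 semaphorins, had 59.7 and 62.3 CPM in Ctrl and then 38.9 and 94.9 CPM. SLIT3 had 27.2 and 27.0 CPM in Ctrl and then 17.6 and 43.9 CPM. In each of these genes the PRMT3-KD libraries bracketed Ctrl, so the group means were near those of Ctrl with log2FCs of 0.17, 0.13 and 0.18. SEMA3B followed the same order, from 23.1 and 23.9 CPM to 15.9 and 33.2 CPM, as did UNC5B, a repulsive netrin receptor, from 6.21 and 6.25 CPM to 4.96 and 15.3 CPM. The scarcer SEMA3F, EFNB3 and ROBO2 completed the set. Among the marker genes, PDGFRA gave 33.4 and 34.2 CPM in Ctrl and 8.62 and 37.2 CPM in PRMT3-KD libraries 1 and 2. CDH5 gave 5.05 and 5.31 CPM and then 5.08 and 25.4 CPM. GFAP gave 13.1 and 14.2 CPM and then 1.26 and 5.39 CPM, below Ctrl in both. NES gave 786.3 and 779.2 CPM and then 458.5 and 825.5 CPM. CD44 had the opposite order, with 1955 and 1958 CPM and then 2271 and 1645 CPM. Their part in the disagreement was not tested.

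**Figure D3:**
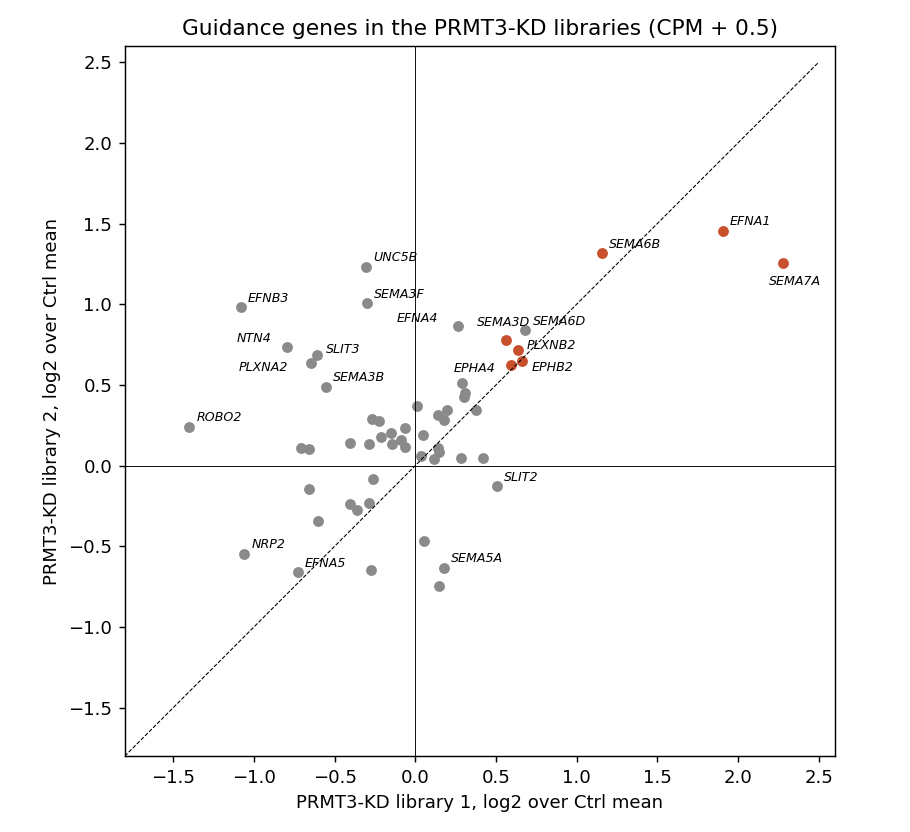
Log2 of CPM + 0.5 in each PRMT3-KD library over the Ctrl mean for the 57 tested genes, library 1 on the x axis and library 2 on the y axis, with the line of equality dashed and genes past the threshold in red. The red genes lie in the upper right, with SEMA7A and EFNA1 farthest below the line, and a group from ROBO2 to UNC5B lies in the upper left, below Ctrl in library 1 and above it in library 2.

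Genes were ranked by level after division by the merged exon length, as RPKM (CPM per kilobase of exon). Sums over genes, and the words scarce and scarcer, refer to CPM without that division. In Ctrl the order was EPHA2 at 188 RPKM, NRP2 at 83.4, SEMA3C at 59.2, EFNB2 at 32.3 and PLXNB2 at 28.1 RPKM. In PRMT3-KD cells EPHA2 remained first at 203 RPKM, followed by SEMA3C at 60.7, SEMA7A at 55.8, NRP2 at 48.5 and PLXNB2 at 44.99 RPKM. SEMA7A had been at 15.3 RPKM in Ctrl, and its PRMT3-KD libraries were so far apart that its place among SEMA3C, NRP2 and PLXNB2 is not resolved. EFNA1 went from 3.11 to 10.6 RPKM, past EFNA4 (3.46 to 5.43 RPKM) as the most abundant ephrin-A transcript.

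A mean of at least 10 CPM in Ctrl was reached by 35 of the 63 guidance genes, and 11 were under 1 CPM. The 6 genes that did not enter the test (EPHA10, EPHB6, NTN3, SEMA3G, SEMA4A and SEMA5B) had 0 to 11 counts in each library. A change in them was not detectable at this depth, at which 3 counts correspond to 0.106 to 0.118 CPM.

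**Figure D4:**
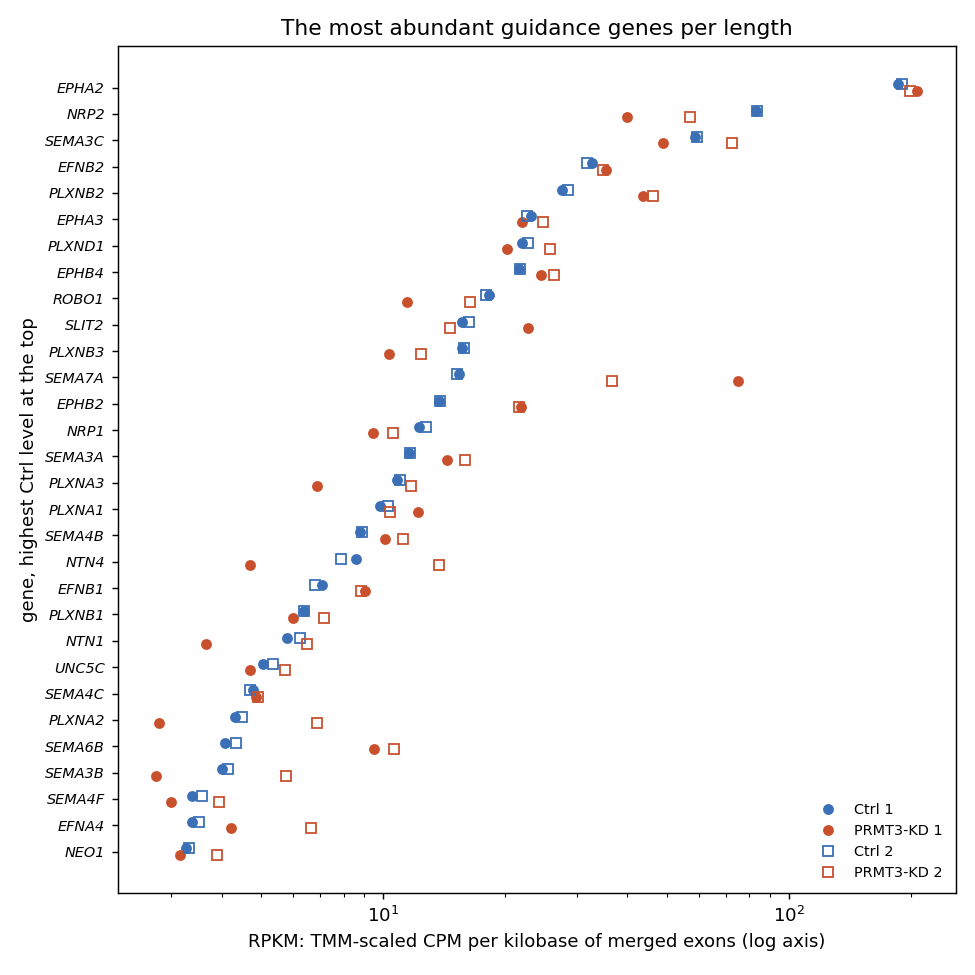
RPKM on a log axis of the most abundant guidance genes in Ctrl, ordered by their Ctrl mean, with 1 symbol per library (Ctrl blue, PRMT3-KD red). EPHA2 is at the top at 188 RPKM in Ctrl, and the Ctrl symbols nearly coincide while the PRMT3-KD symbols spread on both sides of them for genes such as NTN4 and PLXNA2.

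Genes that act with these ligands and receptors were counted over 6 lists of 95 tested genes. Of these, 6 were higher (6.32%) and 8 were lower (8.42%), close to the shares of all tested genes given above. The effectors of plexins and neuropilins gave 3 lower genes and 0 higher genes of 20. DPYSL2, which encodes the tubulin-binding protein CRMP2 of the SEMA3A response, fell from 73.8 and 74.9 CPM in Ctrl to 19.6 and 26.8 CPM in PRMT3-KD cells (log2FC -1.68, edgeR adjusted p = 0.0172). FARP2, a Rac exchange factor that binds plexins of class A, fell from 35.0 and 33.3 CPM to 16.0 and 15.4 CPM (log2FC -1.12, edgeR adjusted p = 0.0142). MICAL2, of a family of actin-oxidising enzymes, fell from a mean of 222 to 137 CPM (log2FC -0.70, edgeR adjusted p = 0.0462).

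Proteases that cut guidance proteins gave 2 higher genes and 0 lower genes of 8. FURIN, a convertase that processes class 3 semaphorins, rose from 243 and 249 CPM in Ctrl to 516 and 398 CPM in PRMT3-KD cells (log2FC 0.89, edgeR adjusted p = 0.0284). MMP14, a membrane-bound matrix metalloproteinase that also cleaves EPHA2, rose from 319 and 331 CPM to 689 and 558 CPM (log2FC 0.94, edgeR adjusted p = 0.0212). Both groups were separate for each of these genes. Among the effectors of DCC and UNC5, 2 of 13 were higher, the actin-binding ABLIM1 (8.28 to 16.1 CPM, log2FC 0.96, edgeR adjusted p = 0.0221) and PTK2, the focal adhesion kinase (96.3 to 148 CPM, log2FC 0.62, edgeR adjusted p = 0.0357). PTK2 missed the threshold on library totals alone (edgeR adjusted p = 0.0646).

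Effectors of Robo gave 1 higher and 2 lower genes of 12. VASP, an actin polymerisation factor, rose from 145 to 238 CPM (log2FC 0.72, edgeR adjusted p = 0.0215). MYO9B, an unconventional myosin, fell from 250.1 to 151 CPM (log2FC -0.73, edgeR adjusted p = 0.0157), and USP33, a deubiquitinating enzyme that binds ROBO1, fell from 85.8 to 55.5 CPM (log2FC -0.63, edgeR adjusted p = 0.0382). Effectors of Eph receptors gave 1 higher and 1 lower gene of 19, the exchange factor VAV3 (4.22 to 8.001 CPM, log2FC 0.92, edgeR adjusted p = 0.0425) and the adaptor ANKS1A (49.9 to 31.3 CPM, log2FC -0.67, edgeR adjusted p = 0.0310). Of 23 other guidance cues and co-receptors, 2 were lower and 0 higher. They were CNTN1, a contactin of the cell surface (36.7 to 20.5 CPM, log2FC -0.84, edgeR adjusted p = 0.0178), and RGMA, a neogenin ligand (4.44 to 1.90 CPM, log2FC -1.22, edgeR adjusted p = 0.0339). RGMA did not pass in limma-voom with a separate variance for each group (adjusted p = 0.0724).

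The sequence CAGCTCA in 3′ UTRs was examined because an earlier analysis of these libraries had linked it to lower expression in PRMT3-KD cells, so its counts here are a description and no independent evidence. In the longest annotated 3′ UTR it was present in 12.5% of the higher, 34.6% of the lower and 18.3% of the remaining genes over all tested genes. It was present in 10 of the 57 tested guidance genes (17.5%, against 19.0% of all tested genes with a 3′ UTR) and in 0 of the 7 that rose. The guidance genes that carry it had a median log2FC of 0.11, and those without it 0.13. In the pathway lists it was present in 6 of the 8 lower genes (CNTN1, RGMA, FARP2, MICAL2, ANKS1A and USP33), in 0 of the 6 higher genes and in 25.9% of the rest. Median 3′ UTR lengths were 1335 bases for the 7 guidance genes that rose and 2450 for the other tested ones. In the pathway lists they were 2634 bases for lower, 1702 for higher and 2253 for remaining genes. Over all tested genes they were 1486 bases for lower, 2035 for higher and 1552 for remaining genes. The part of 3′ UTR length in the counts of CAGCTCA was not tested. The sites of the ephrin-A gene with the lowest fold change, EFNA5, and of the EPHB4 receptor with its ligand EFNB2, which did not pass, are shown with CAGCTCA in capitals and read on the strand of the gene. They lie in GRCh37 at chr5:106713391-106713417 (minus strand), chr7:100403234-100403260 (minus strand) and chr13:107144617-107144643 (minus strand), all in the 3′ UTR.
EFNA5 site: atatcatgtgCAGCTCActcatggaaa
EPHB4 site: ctccctccacCAGCTCAtgctggactg
EFNB2 site: gctgcaattgCAGCTCActgctgctgc
EFNA5 was lower in both PRMT3-KD libraries, while EPHB4 and EFNB2, with the same sequence, were slightly above Ctrl in both.

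Promoters were read from RefSeq (GRCh38.p14) as the 250 bases before the first listed start of each gene, and 49 of the 57 tested guidance genes matched by symbol, 6 of the 7 that rose among them. Both strands were searched for 5 motifs. The GC box GGGCGG was present in 37 of the 49 guidance promoters (75.5%) and in 42.3% of all 27305 promoters. Those 27305 cover every gene symbol listed, tested here or not, whereas the 49 passed the count filter. The shares of all promoters given here are therefore of an unlike set, and no share over tested genes was computed. It was present in 5 of the 6 promoters of genes that rose (EFNA1, EPHA4, EPHB2, PLXNB2 and SEMA7A). The core TGACG of the cyclic AMP response element (CRE) was in 11 of 49 (22.4%, against 21.7% of all promoters), including PLXNB2 and SEMA3D. The AP-1 motif TGANTCA was in 1 of 49 (6.60% of all promoters), the hypoxia response core ACGTG in 4 of 49 (18.7%), and the E-box CACGTG, which contains that core, in 2 of 49 (6.49%). None of those last motifs was found in the 6 promoters of genes that rose. The promoters of the guidance genes with the largest increases that matched, SEMA7A and EFNA1, are shown with that of PLXNB2, with GC boxes and the CRE core in capitals. In GRCh38.p14 they span chr15:74433959-74434208 (minus strand), chr1:155127626-155127875 (plus strand) and chr22:50301670-50301919 (minus strand).
SEMA7A promoter: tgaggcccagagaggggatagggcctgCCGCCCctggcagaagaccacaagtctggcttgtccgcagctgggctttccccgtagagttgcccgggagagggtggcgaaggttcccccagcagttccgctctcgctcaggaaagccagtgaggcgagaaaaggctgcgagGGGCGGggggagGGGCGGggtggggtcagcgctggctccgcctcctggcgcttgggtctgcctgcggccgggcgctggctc
EFNA1 promoter: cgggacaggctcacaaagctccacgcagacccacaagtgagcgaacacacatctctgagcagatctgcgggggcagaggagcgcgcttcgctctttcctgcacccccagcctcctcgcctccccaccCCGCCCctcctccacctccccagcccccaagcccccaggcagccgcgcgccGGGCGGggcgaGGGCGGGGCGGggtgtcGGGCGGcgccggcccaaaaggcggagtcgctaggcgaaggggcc
PLXNB2 promoter: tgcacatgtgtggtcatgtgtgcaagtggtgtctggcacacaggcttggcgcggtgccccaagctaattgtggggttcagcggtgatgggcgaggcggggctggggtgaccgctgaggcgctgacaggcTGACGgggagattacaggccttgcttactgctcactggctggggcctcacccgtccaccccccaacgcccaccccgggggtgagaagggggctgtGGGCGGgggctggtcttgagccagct
The SEMA7A window holds 3 GC boxes, that of EFNA1 holds 5, and that of PLXNB2 holds 1 with 1 CRE core. A match of letters is a description of these windows, and binding was not measured.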

How the data were processed

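RNA-seq libraries of U251 cells (2 Ctrl and 2 PRMT3-KD) were grouped by their labels. According to the methods and the processing notes, the authors aligned reads to hg19 with TopHat and obtained gene counts with Cufflinks, versions and annotation not being given in the sources used here. They deposited whole-number counts without normalization. Strand use in counting is not stated. After removal of 1 duplicate of 15576 rows, genes were filtered (filterByExpr, minimum count 10, minimum total 15), scaled by TMM and tested with edgeR 4.0.16 (glmQLFit and glmQLFTest) in R 4.3.3, with Benjamini-Hochberg adjustment over 13172 genes, at an adjusted p under 0.05 and over 1.5-fold. DESeq2 1.42.0, named in the study's methods, and limma 3.58.1 (voom) served as alternatives, with other scalings, filters, fold limits, a replicate block and each library left out. The edgeR fit was tested on simulated data. CPM is on the TMM scale, SDs are over 2 libraries, single-library ratios used CPM + 0.5, and intervals are those of the fit. Total counts limit precision mainly for genes with few counts.

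Gene lengths, coordinates and 3′ UTRs came from GENCODE 44 on GRCh37, which held 99.9% of the identifiers. Named with values were genes with an adjusted p under 0.05 in the main test or called in another whole-data fit, the gene of each family with the highest Ctrl RPKM, listed pathway genes past the threshold, and further genes named after their values were seen. The guidance genes and the pathway and marker lists were chosen with earlier results of these data known.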

Additional observations from a re-analysis of the deposited data

How the results depend on the processing

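The 7 higher guidance genes numbered 7 with DESeq2, RLE or upper-quartile factors, either other filter and limma-voom, and 6 on library totals alone and with the replicate block, which SEMA3D missed (adjusted p = 0.0535 and 0.0656, edgeR). No lower guidance gene was found in the main test, with 1 under DESeq2, library totals, the replicate block and limma-voom (NRP2) and 1 with at least 10 counts in every library (EFNA5), so that the split on library totals was 6 higher and 1 lower. NRP2 had a log2 fold change of -0.80 (adjusted p = 0.0334, edgeR) with the replicate block. The differences between libraries 1 and 2 of the groups had a correlation of 0.0222 across genes. The Ctrl libraries differed little more than counting error, so this value cannot show whether equal replicate numbers mark pairs. At 2-fold, 3 guidance genes were higher, and 0 higher and 3 lower pathway genes passed (3 in all). Without a fold limit 8 guidance genes were higher and 0 lower, and 11 pathway genes were higher and 10 lower. The shares of all tested genes at these fold limits are not given here, so these counts stand without a comparison. With 1 library left out, its group's other library was assumed to vary like the rest. The share of all tested genes past the threshold was 0% without either Ctrl library, 22.9% without PRMT3-KD library 1 and 22.3% without PRMT3-KD library 2. The guidance genes past it then numbered 0 to 19 (0 to 15 higher, 0 to 11 lower) and the pathway genes 0 to 29 (0 to 10 higher, 0 to 19 lower). The counts of 0 came without a Ctrl library, when the spread rested on the PRMT3-KD libraries, and the high counts without a PRMT3-KD library, when it rested on the Ctrl libraries.

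With 1 library left out, log2 fold changes turned in many guidance genes, among them NTN1 (-0.73 to 0.11), NEO1 (-0.069 to 0.24), SLIT1 (-1.28 to 0.11) and EPHA3 (-0.067 to 0.12). The rest of this paragraph covers the highest gene of each family per length and genes with PRMT3-KD libraries over 2-fold apart. Among these, the log2 fold changes that turned were near 0 or came from discordant PRMT3-KD libraries. With 1 library left out they ranged from -1.43 to 1.11 for EFNB3, -0.81 to 0.74 for NTN4, -0.66 to 0.64 for PLXNA2, -1.67 to 0.26 for ROBO2, -0.57 to 0.50 for SEMA3B, -0.28 to 0.29 for SEMA3C, -0.36 to 1.12 for SEMA3F, -0.12 to 0.50 for SLIT2, -0.63 to 0.70 for SLIT3, -0.33 to 1.30 for UNC5B and -0.15 to 0.14 for UNC5C. With all libraries in the fit, the values that turned were -0.017 (NTN4), -0.025 (SEMA3B) and -0.0036 (UNC5C) with the replicate block, -0.068 (EFNB3), -0.0040 (NTN4) and -0.013 (SEMA3B) with limma-voom, -0.0031 (SEMA3C) and -0.033 (UNC5C) on library totals, and -0.00035 (UNC5C) with 10 or more counts in each library. Any annotated 3′ UTR in place of the longest gave 12 guidance genes with CAGCTCA. Depth limits the guidance genes under 1 CPM, and 2 libraries a group limit all of them.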
